A study of Mus musculus with 8 samples.

Results

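The 10 genes described here encode auxiliary subunits of the AMPA-type glutamate receptor: Shisa6, Shisa7, Shisa9, Cnih2, Cnih3, Cacng2, Cacng3, Cacng4, Cacng5 and Cacng8. They were taken by gene symbol, and all 10 were among the 32285 genes counted. Shisa6 brought the family into view because earlier results of these same data had shown it lower in Chd8 heterozygotes in one class of excitatory neurons, and its genotype values, which it was chosen by, are given as a description with no test. The other 9 belong to the same functional family. The data were UMI (unique molecular identifier) counts from single nuclei of the cerebral cortex of C57BL/6J mice at postnatal day 25, with the medial cortex removed. There were 4 wild type (WT) and 4 Chd8+/- (Chd8het) libraries, each genotype with 2 males and 2 females. Chd8 codes for a chromatin remodeller, and loss of 1 copy is used to model a form of autism; the kind of allele was not given in the sources used here. In both genotypes and sexes, replicate 1 carried single and replicate 2 dual indexes, so replicate number and index type cannot be told apart.

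AMPA receptors are tetramers of Gria subunits that carry most fast excitatory transmission in the cortex. Auxiliary subunits bind them, bring them to the surface, hold them at the synapse and set how fast they close or desensitise. Neuron classes differ in which auxiliary subunits they use, and oligodendrocyte precursor cells also carry AMPA receptors and receive synaptic contacts. The families covered are the CKAMP or Shisa proteins, the cornichon homologues, and the transmembrane AMPA receptor regulatory proteins (TARPs), coded by Cacng genes.

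Several members end in a short tail that binds the PDZ domains of postsynaptic scaffold proteins such as the one coded by Dlg4. The ends of the coding sequences are shown because the tail is shared by some members and not by others. Each line holds the last 30 coding bases before the stop codon in GENCODE M21 (build GRCm38), 5′ to 3′, with the last 4 codons in capitals.
Shisa6: tacacagccagcaagactGAAGTGACCGTG
Shisa7: cgcactgccagcaagaacGAAGTGACTGTC
Shisa9: atcactaacagcaaaacaGAAGTGACTGTC
Cnih2: tacagtatggtttatacgTTGGTGAGCTTC
Cnih3: tactgcatgatttacaccTTAGTGAGCTCC
Cacng2: aacacagccaaccgccggACCACGCCCGTA
Cacng3: aatccggccaacagacgtACCACGCCTGTC
Cacng4: agcatgctgaaccggcggACGACTCCCGTG
Cacng8: aacacgctcaacaggaaaACCACGCCCGTG
Cacng5: gactatgaccagatgtcaTCATCTCCCTGC
The 3 Shisa genes code for the same last 4 residues, and Shisa7 and Shisa9 do so with identical bases. Cacng2, Cacng3, Cacng4 and Cacng8 share another set of 4 residues through 4 different runs of bases. Cacng5 and the cornichons Cnih2 and Cnih3 share their last 4 residues with no other member.

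The genes lie on 6 chromosomes (build GRCm38). On chromosome 11 are Shisa6 (chr11:66211725-66525964, minus strand), Cacng4 (chr11:107732357-107794557, minus) and Cacng5 (chr11:107874605-107915055, minus). Chromosome 7 holds Shisa7 (chr7:4825552-4844696, minus), Cacng3 (chr7:122670492-122769393, plus) and Cacng8 (chr7:3390683-3415648, plus). Shisa9 is at chr16:11984113-12270902 (plus), Cnih2 at chr19:5092868-5098521 (minus), Cnih3 at chr1:181352628-181460641 (plus) and Cacng2 at chr15:77991748-78120028 (minus). All are protein coding, and they span from 5.654 kb (Cnih2) to 314 kb (Shisa6). Levels are therefore compared between nucleus groups and libraries and not between genes.

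The 8 libraries held about 69500000 to 98100000 UMIs, and 77890 of 97772 barcodes were kept as single nuclei, 7503 to 10988 per library. Nuclei were sorted into groups by fixed marker genes, none of them a member, and 53360 nuclei (68.5%) entered 1 of 21 groups. Tests were run in the 18 groups that reached 30 nuclei in each of the 8 libraries. A group name means resemblance by markers: IT are intratelencephalic, ET extratelencephalic, CT corticothalamic excitatory neurons, Pvalb, Sst, Vip and Lamp5 are interneuron classes, and OPC are oligodendrocyte precursor cells. The group meant for L5/6 IT neurons raised 2 of its 5 markers and is called the Deptor-Il1rapl2 gate, and the one meant for near-projecting neurons is called the Tshz2 gate. Nuclei of the L4/5 IT group ranged from 138 (Chd8het male 2) to 1178 per library. Chd8 itself stood at 84.7 ± 3.43 CPM in WT and 84.2 ± 6.00 CPM in Chd8het (SD, n = 4 each), which does not check the labels, since these counts do not separate alleles. CPM are UMIs per 1000000, scaled jointly over all groups and libraries by the trimmed mean of M values. The fitted log2 differences used a separate scaling within each group. Among kept nuclei, 715 of 77168 distinct barcodes occurred in more than 1 library.

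**Figure D1:**
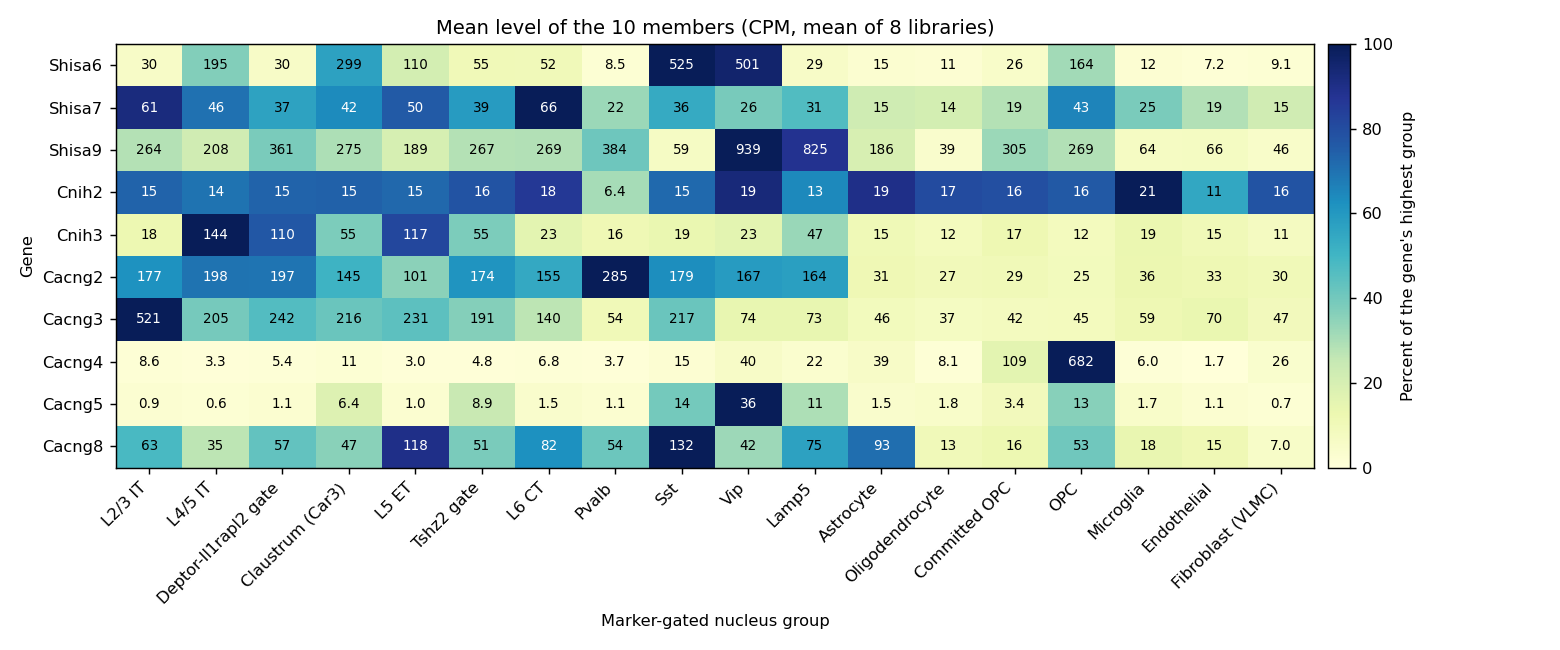
Mean level of each member (rows) in the 18 tested nucleus groups (columns), in CPM as printed in each cell (mean of 8 libraries), with colour giving the percent of that gene's highest group. Cacng4 reached 682 CPM in OPC and Shisa6 525 CPM in Sst neurons, while Cnih2 stayed between 6.35 and 20.6 CPM in all 18 groups.

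Shisa6, which slows desensitisation of the receptor and anchors it at the synapse, was concentrated in 2 interneuron classes. It stood at 525 ± 106 CPM in Sst neurons and 501 ± 115 CPM in Vip neurons (mean ± SD, n = 8 libraries). Claustrum-like (Car3) neurons followed at 299 ± 164 CPM, L4/5 IT neurons at 195 ± 125, OPC at 164 ± 29.5 and L5 ET neurons at 110 ± 17.0 CPM. Pvalb neurons, which like Sst neurons stem from the medial ganglionic eminence, had 8.45 ± 5.59 CPM, near the oligodendrocytes at 10.7 ± 2.57 CPM. L2/3 IT neurons had 30.2 ± 10.3 CPM.

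The order of neighbouring groups was tested with an exact two-sided sign-flip test over the 8 libraries on log2(CPM + 1), adjusted by the Benjamini-Hochberg method over all 170 neighbour steps of the 10 genes. The order was ranked on the means of the same 8 libraries. The smallest p that 8 libraries allow is 0.00781, and at least 27 steps would have had to reach it for a step at that p to have an adjusted p of 0.05. It was reached by 14 steps, with an adjusted p of 0.0949 each, so that no step passed, whatever its size. A step that missed the threshold is therefore not shown to be absent. For Shisa6, Sst neurons exceeded Vip neurons by 0.08 ± 0.19 on the log2 scale (SD, n = 8), in 5 of 8 libraries (exact adjusted p = 0.731), and L4/5 IT neurons higher than OPC in 3 of 8 (exact adjusted p = 0.982). The steps from claustrum-like to L4/5 IT neurons, from OPC to L5 ET neurons and from L5 ET neurons to the Tshz2 gate went the same way in 8 of 8 libraries.

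**Figure D2:**
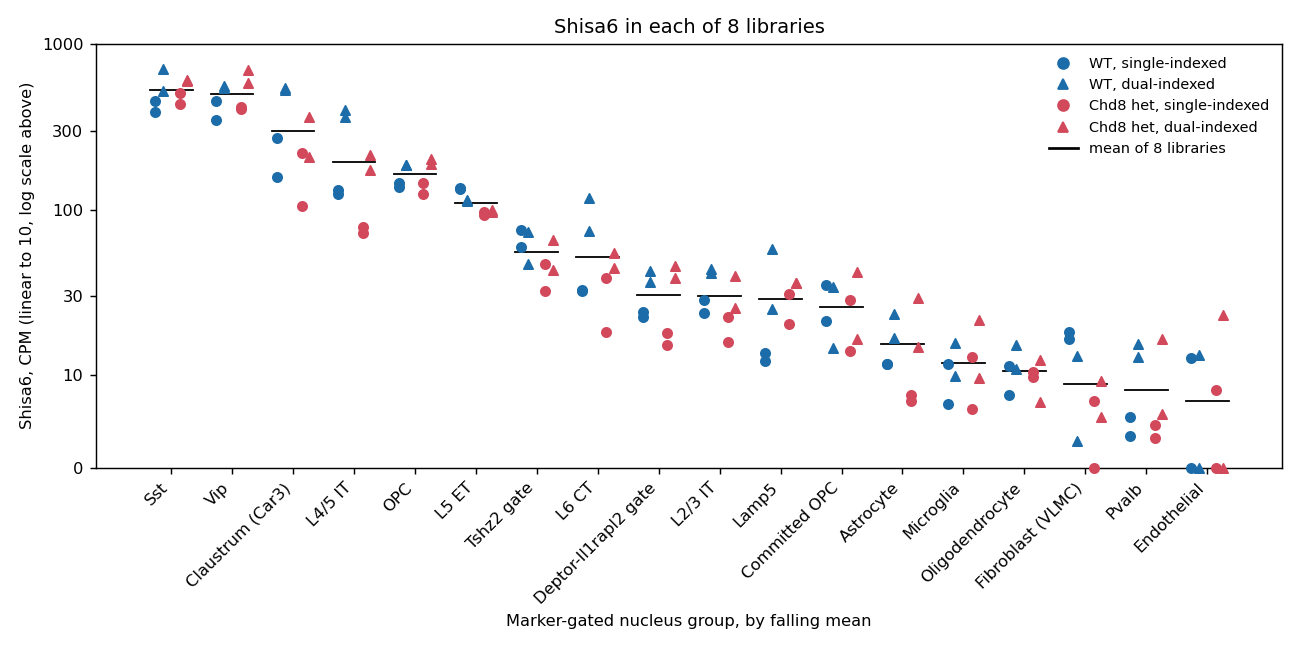
Shisa6 level in CPM (vertical axis, linear to 10 and logarithmic above) in each library for the 18 tested groups, ordered by falling mean. Blue is WT, red is Chd8het, circles are single-indexed and triangles dual-indexed libraries, and the line is the mean of 8 libraries; in L4/5 IT neurons the values run from 72.8 to 399 CPM.

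Within nuclei the picture was alike. After each nucleus was thinned to 2000 UMIs, 54.5 ± 6.11% of Sst nuclei and 55.9 ± 6.97% of Vip nuclei held a Shisa6 UMI (SD, n = 8 libraries). The share was 24.7 ± 12.6% in L4/5 IT neurons, 25.8 ± 4.11% in OPC and 4.92 ± 1.38% in L2/3 IT neurons. Pvalb neurons (1.55 ± 1.00%) were at the level of oligodendrocytes (1.66 ± 0.744%), which is taken as the background of free RNA. Unthinned shares were 79.2% in Sst neurons and 3.23% in oligodendrocytes, whose library medians of depth were 5914 to 9368 and 2953 to 3774 UMIs.

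Shisa6 was fitted lower in Chd8het in 11 of the 16 groups that passed the filter on low counts and higher in 5. Over the 18 groups, 49.8% of all genes were fitted lower and 50.2% higher. All groups come from the same 8 libraries. The number of groups lower for Shisa6 ran from 8 (without Chd8het female 1 or WT female 2) to 15 (without WT male 1). The 11 were the 7 excitatory groups, Pvalb neurons, astrocytes, oligodendrocytes and committed OPC. Of these, Pvalb neurons (8.45 CPM) and oligodendrocytes (10.7 CPM) lay at the level taken as the background of free RNA. In L4/5 IT neurons, the WT libraries (male 1, male 2, female 1, female 2) stood at 124, 399, 131 and 365 CPM and the Chd8het libraries in the same order at 78.5, 175, 72.8 and 213 CPM. Each Chd8het library was below the WT library of its sex and index type, and the groups overlapped only across index types. Of all genes tested in L4/5 IT neurons, 7.8% were lower in Chd8het in 4 of 4 pairs. The Shisa6 means were 255 ± 147 and 135 ± 70.2 CPM (SD, n = 4 each), a fitted log2 difference (Chd8het minus WT) of -0.93. Its SE was 0.49 in the model without pairs. The log2 ratio of means was -0.76 among single-indexed and -0.98 among dual-indexed libraries. When WT male 2 was left out the difference was -0.50 and when Chd8het male 2, which had 138 such nuclei, was left out it was -1.15. The fit without WT female 2 gave -0.60.

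In the same L4/5 IT nuclei thinned to 2000 UMIs, 17.3%, 42.1%, 19.96% and 44.6% held a Shisa6 UMI in the WT libraries and 11.5%, 22.6%, 12.6% and 26.5% in the Chd8het libraries. The means were 31 ± 14.3% and 18.3 ± 7.42% (SD, n = 4 each), and the share was lower in Chd8het in 4 of 4 pairs. Without thinning they were 63.5% and 47.5%. Thinning left out 23 of 2976 WT nuclei and 27 of 2905 Chd8het nuclei for shallow depth. Oligodendrocytes held a Shisa6 UMI in 1.96% (WT) and 1.37% (Chd8het) of thinned nuclei.

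The other 6 excitatory groups had fitted values below 0, though not in every pair or setting. L5 ET neurons were the 1 tested group in which Shisa6 did not overlap between genotypes: WT libraries were at 136, 113, 134 and 115 CPM and Chd8het libraries at 96.8, 100, 92.5 and 96.9 CPM, a log2 difference of -0.37 (SE 0.11). Of all genes tested in L5 ET neurons, 1.24% had non-overlapping genotypes with Chd8het lower. The 5 OPC markers summed to 28.8 to 31.3 CPM in these WT nuclei and 37.8 to 68.1 CPM in the Chd8het ones, and their part was not tested. Claustrum-like neurons had 374 ± 192 CPM in WT and 224 ± 105 in Chd8het (log2 difference -0.77, SE 0.35), lower in 3 of 4 pairs, with log2 ratios of -0.39 (single-indexed) and -0.91 (dual-indexed). Leaving out single libraries gave -1.12 (without Chd8het female 2) to -0.39 (without WT male 2). The 5 claustrum markers in these nuclei summed to 1508 to 1734 CPM in WT and 1220 to 1740 CPM in Chd8het. By their means 4 of them were higher in WT. Libraries held 32 to 115 claustrum-like nuclei, and the part of these values was not tested. L6 CT neurons had 64.2 ± 40.4 and 39.3 ± 15.5 CPM (-0.72, SE 0.42), lower in 3 of 4 pairs, and -0.29 without WT male 2. Their own 5 markers summed to 5140 to 7027 CPM in WT (mean 6084) and 4825 to 5941 CPM in Chd8het (mean 5364). By their means 3 of these markers were higher in WT, and their part was not tested. The Tshz2 gate had 63.7 ± 13.2 and 47.0 ± 14.0 CPM (-0.43, SE 0.23), lower in 3 of 4 pairs, with log2 ratios of -0.77 (single-indexed) and -0.14 (dual-indexed). It ran from -0.66 without Chd8het female 2 to -0.26 without Chd8het male 1. Nuclei in this gate ranged from 176 (WT male 1) to 909 (Chd8het male 2) per library, and the part of this spread was not tested. In the Deptor-Il1rapl2 gate the values were 31.4 ± 9.71 and 29.5 ± 15.1 CPM (-0.10, SE 0.36), lower in 2 of 4 pairs, and single libraries left out gave -0.46 to 0.15. L2/3 IT neurons had 34.4 ± 9.80 and 26 ± 10.1 CPM (-0.41, SE 0.29), lower in 4 of 4 pairs, as were 7.36% of all genes there. The difference was -0.73 without Chd8het female 2 and -0.21 without WT male 2.

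In Pvalb neurons Shisa6 lay at the level taken as the background of free RNA. The log2 difference there was -0.36 (SE 0.54), from 9.37 ± 5.80 to 7.54 ± 6.09 CPM and lower in 3 of 4 pairs. It was -1.14 without Chd8het male 2 and 0.17 without WT female 2. In Sst and Vip neurons, the groups with most Shisa6, and in OPC, fitted differences were smaller than their SE in the model without pairs. Sst neurons stood at 386, 706, 452 and 518 CPM in WT and at 432, 603, 507 and 599 CPM in Chd8het, a log2 difference of 0.07 (SE 0.17) that ran from -0.06 (without WT male 1) to 0.29 (without WT male 2). Vip neurons differed by 0.15 (SE 0.20), with a range of -0.03 to 0.30 when single libraries were left out. OPC differed by 0.01 (SE 0.17), and the sign changed between settings. Whether the difference in L4/5 IT neurons is larger than that in Sst or Vip neurons was not tested. Over all kept nuclei the log2 difference was -0.38 (SE 0.26), lower in 4 of 4 pairs, as were 7.57% of all genes there. It ran from -0.57 (without Chd8het female 2) to -0.18 (without WT male 2) with 1 library left out. In all kept nuclei, fewer nuclei of a type and less RNA per nucleus cannot be told apart.

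**Figure D3:**
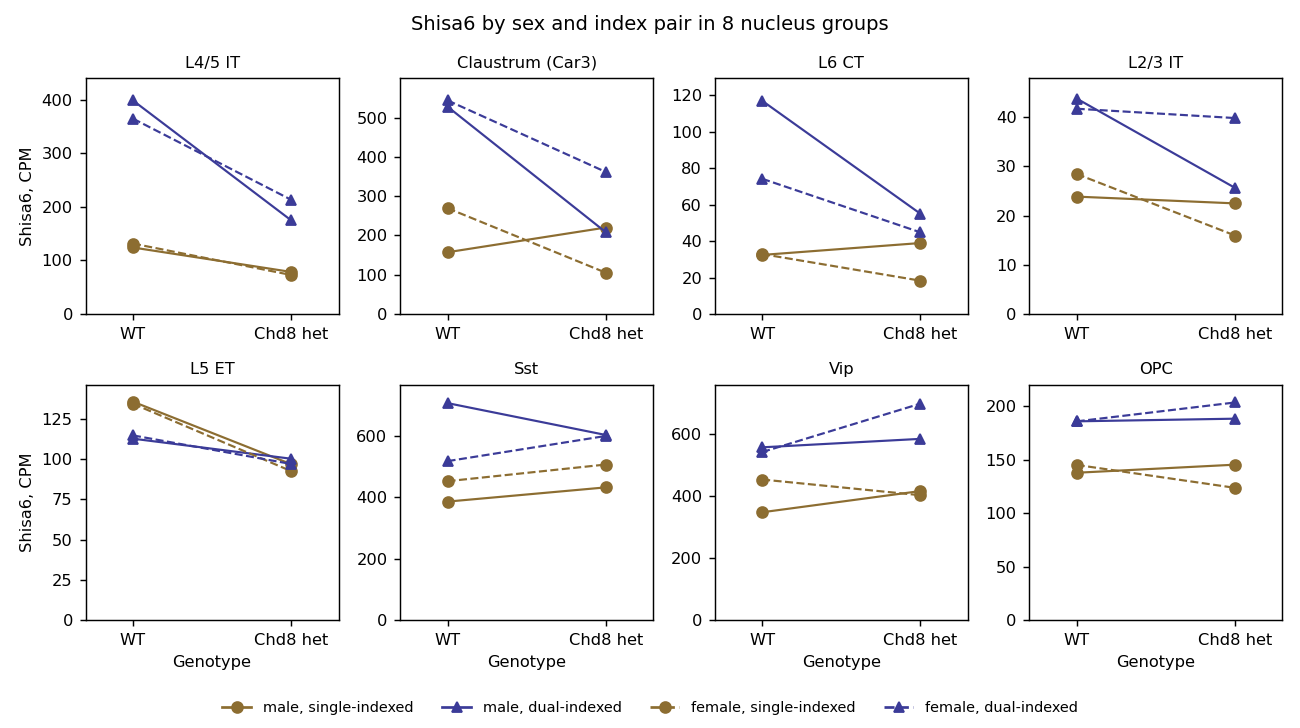
Shisa6 level in CPM (vertical axes from 0) in WT and Chd8het, in 8 nucleus groups, with a line joining libraries of the same sex and index type (solid male, dashed female, brown circles single-indexed, blue triangles dual-indexed). All 4 lines go down in L4/5 IT, L2/3 IT and L5 ET neurons, while Sst, Vip and OPC have lines in both directions.

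Composition was measured beside the L4/5 IT values. The summed level of the 5 L4/5 IT markers was 2316 to 3097 CPM in WT and 1962 to 3005 CPM in Chd8het, and that of the 5 claustrum markers 88.9 to 106 and 91.3 to 129 CPM. The 4 Sst markers together were at 18.96 to 31 CPM in WT and 26.9 to 35.9 CPM in Chd8het, and the 3 Vip markers at 4.74 to 7.49 and 1.89 to 11.7 CPM. Of 25 marker lists, 1 had groups that did not overlap: the 5 OPC markers summed to 19.6 to 24.8 CPM in WT and 25.9 to 33.1 CPM in Chd8het. For the 6 striatal markers the sum went with Shisa6 in all 4 pairs, at 1230, 3385, 1012 and 3191 CPM in WT and 714, 3025, 723 and 1706 CPM in Chd8het. Nearly all of it was Pde10a (2133 CPM in WT, 1464 in Chd8het), while Drd1 and Adora2a stayed below 1 CPM in every library. Of the 6 markers, 2 were higher in WT by their means, and Drd1, Ppp1r1b, Rgs9 and Meis2 were higher in Chd8het. The striatal sum was lower in Chd8het in 4 of 4 pairs in 7 of the 8 groups where it was taken, L5 ET, L2/3 IT, L6 CT and claustrum-like neurons among them, and also Sst neurons and OPC. The part of these levels in the Shisa6 difference was not tested.

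On the opposite strand of Shisa6 lies Gm12296, a processed transcript (chr11:66168035-66301237, plus strand). Strandedness of the counting was not given in the sources used here, so the reads of both genes may not be fully separated. In L4/5 IT neurons Gm12296 stood at 39.4, 165, 55.7 and 164 CPM in WT and at 24.0, 21.7, 20.7 and 127 CPM in Chd8het, lower in 4 of 4 pairs. It amounted to 12.4% of the Shisa6 level in Chd8het male 2 and to 59.5% in Chd8het female 2, so the ratio was not fixed. Across the 18 groups Gm12296 was the gene whose log2 mean levels followed Shisa6 most closely of 14047 genes (Pearson r = 0.991 over 18 groups, all from the same libraries). Next came 4930555F03Rik (0.836), Gm45321 (0.830), Gm45323 (0.827) and Gm15584 (0.826), and the first 3 of these 4 were highest in Vip neurons.

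Shisa9, which promotes desensitisation of the receptor, was highest in Vip and Lamp5 interneurons and low in Sst neurons. Vip neurons had 939 ± 187 CPM and Lamp5 neurons 825 ± 183 CPM (n = 8), the first being higher in 5 of 8 libraries (exact adjusted p = 0.707). Pvalb neurons followed at 384 ± 104 CPM, lower than Lamp5 neurons in 8 of 8 libraries. Sst neurons had 59.0 ± 28.6 CPM. Excitatory groups ranged from 189 CPM (L5 ET) to 361 CPM (Deptor-Il1rapl2 gate), and committed OPC and OPC reached 305 ± 91.8 and 269 ± 94.1 CPM. Fam124a (r = 0.845), Nrg2 (0.803) and Susd4 (0.796) had the closest patterns over the 18 groups.

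No genotype difference of Shisa9 passed in the model without or with pairs. Here and for the members below, SE and adjusted p are from the model without pairs. A difference not called there is not shown to be absent. In Vip neurons the log2 difference was -0.17 (SE 0.17) and in Lamp5 neurons -0.14 (SE 0.15), with edgeR adjusted p of 1.00 and 0.998. They ran from -0.31 (without Chd8het female 2) to -0.09 (without WT male 2) and from -0.27 (without WT female 1) to 0.00 (without WT female 2). In Sst neurons the WT libraries were at 27.2, 79.8, 31.3 and 62.3 CPM and the Chd8het libraries at 39.0, 106, 42.6 and 83.5 CPM, higher in 4 of 4 pairs with overlapping groups (0.44, SE 0.35, edgeR adjusted p = 0.999). The fit without Chd8het male 2 gave 0.11 and that without WT male 2 gave 0.76. In L2/3 IT neurons Shisa9 was at 147, 384, 208 and 412 CPM in WT and 140, 370, 126 and 327 CPM in Chd8het, lower in 4 of 4 pairs (-0.25, edgeR adjusted p = 1.00). This value was 0.01 without WT male 2 and -0.63 without Chd8het male 2.

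Shisa7, which modulates AMPA receptors and also binds inhibitory GABA receptors, was highest in L6 CT (66.0 ± 9.59 CPM) and L2/3 IT neurons (60.9 ± 8.51 CPM), the first being higher in 7 of 8 libraries (exact adjusted p = 0.111). L5 ET neurons had 50.2 ± 10.1 and L4/5 IT neurons 46.3 ± 7.58 CPM, and interneurons lay between 21.6 CPM (Pvalb) and 35.6 CPM (Sst). OPC had 43.1 ± 7.56 and oligodendrocytes 13.8 ± 4.01 CPM. Between genotypes its log2 difference was -0.04 (SE 0.12) in L6 CT and 0.00 (SE 0.13) in L2/3 IT neurons (edgeR adjusted p = 1.00 in both). Agap2 followed Shisa7 most closely (r = 0.956), then Syt16 (0.946) and Gm29587 (0.939).

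The cornichon homologues help receptors leave the endoplasmic reticulum and slow their closing. Cnih3 was excitatory and layered: 144 ± 27.5 CPM in L4/5 IT, 117 ± 21.6 in L5 ET, 110 ± 17.7 in the Deptor-Il1rapl2 gate and 55.0 ± 9.93 in the Tshz2 gate, against 17.6 ± 12.3 in L2/3 IT and 22.7 ± 8.35 in L6 CT neurons. L4/5 IT exceeded L5 ET neurons in 7 of 8 libraries (exact adjusted p = 0.148), and the drop to the Tshz2 gate occurred in 8 of 8. Lamp5 neurons had 47.3 ± 16.2 CPM, the most among interneurons. Efcab6 (r = 0.831), Osbpl2 (0.830) and Osbp2 (0.83) were nearest to it. Cnih2 was low and even, between 6.35 CPM in Pvalb neurons and 20.6 ± 7.15 CPM in microglia, where 145 UMIs lay behind the value. Astrocytes (18.5 CPM) and Vip neurons (19.1 CPM) were close to it. Oligodendrocytes, whose Shisa6 level was taken as the background of free RNA, had 16.6 CPM of Cnih2. The 7 excitatory groups lay at 14.3 to 17.8 CPM, so Cnih2 there did not stand above oligodendrocytes. The part of free RNA in the Cnih2 levels was not tested. The nearest patterns to Cnih2 were 8030453O22Rik (0.746), Fancl (0.742) and Pik3r1 (0.736).

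Both cornichons had more groups with a positive genotype difference than a negative one, none past the test. Cnih3 was fitted higher in Chd8het in 13 of 15 groups and Cnih2 in 10 of 13, against 50.2% of all genes over the 18 groups. The groups share the same 8 libraries and are not separate observations. Without Chd8het male 2, which stood far above the other Chd8het libraries for Cnih3 in 3 groups, Cnih3 was higher in 10 of 15. Cnih2 was higher in 7 of 13 without Chd8het female 1 or WT male 2. In Lamp5 neurons Cnih3 stood at 25.2, 57.7, 29.4 and 43.1 CPM in WT and 59.0, 73.7, 39.5 and 51.2 CPM in Chd8het, higher in 4 of 4 pairs (0.50, SE 0.26, edgeR adjusted p = 0.998). The difference was 0.27 without WT male 1. In L4/5 IT neurons, its highest group, the difference was 0.14 (SE 0.16, edgeR adjusted p = 1.00), and ran from 0.03 (without WT female 1) to 0.24 (without WT male 1). In L2/3 IT neurons the Cnih3 value of Chd8het male 2 was 47.5 CPM against 10.7 to 17.6 CPM in the other 7. Cnih2 in microglia had 16.4 ± 7.89 CPM in WT and 24.8 ± 3.15 CPM in Chd8het (0.60, SE 0.29, edgeR adjusted p = 0.999), with log2 ratios of 1.08 (single-indexed) and 0.17 (dual-indexed), and 0.94 without WT female 2.

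Among the TARPs, Cacng2, which codes for stargazin, the first known of them, was broad in neurons and highest in Pvalb neurons. Its levels there were 239, 366, 227 and 343 CPM in WT and 243, 365, 228 and 267 CPM in Chd8het. Their mean of 285 ± 62.4 CPM exceeded that of L4/5 IT neurons (198 ± 78.9) in 8 of 8 libraries. Other neuron groups ranged from 101 CPM (L5 ET) to 197 CPM (Deptor-Il1rapl2 gate), and the 7 glial and vascular groups from 24.9 to 36.0 CPM. Snhg11 (r = 0.975), Clvs1 (0.974) and Snhg14 (0.972) followed it. The genotype difference was -0.09 (SE 0.17) in Pvalb and -0.27 (SE 0.28) in L4/5 IT neurons (edgeR adjusted p = 1.00 in both), and turned to 0.06 and 0.02 without WT female 2. Without Chd8het male 2 they were -0.24 and -0.51. An antisense gene, A730060N03Rik, overlaps Cacng2 and held 10703 UMIs against 79327.

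Cacng3 was highest in upper-layer neurons. L2/3 IT neurons held 515, 571, 430 and 562 CPM in WT and 511, 578, 481 and 517 CPM in Chd8het. Every 1 of these 8 values was above every value of the next group, the Deptor-Il1rapl2 gate (242 ± 47.9, highest library 348 CPM). L5 ET (231 CPM), Sst (217), claustrum-like (216) and L4/5 IT (205) neurons lay close together, each step between them smaller than its SD over 8 libraries, and Pvalb neurons had 54.1 ± 11.4 CPM. The genotype difference in L2/3 IT neurons was 0.01 (SE 0.10, edgeR adjusted p = 1.00) and ran from -0.06 to 0.08 with single libraries left out. In Vip neurons it was -0.51 (SE 0.23, edgeR adjusted p = 1.00), from 87.1 ± 21.8 to 60.2 ± 7.07 CPM, lower in 3 of 4 pairs. Dnah1 (r = 0.927), Cnksr2 (0.923) and Exd2 (0.922) had the closest patterns.

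Cacng4 was highest in OPC, the proliferating stage of the oligodendrocyte lineage. OPC stood at 498, 859, 647 and 690 CPM in WT and 670, 631, 723 and 736 CPM in Chd8het. Committed OPC had 109 ± 14.8 CPM, lower than OPC by 2.63 ± 0.20 on the log2 scale (SD, n = 8) and in 8 of 8 libraries, and oligodendrocytes had 8.07 ± 4.03 CPM. Among neurons, Vip cells had 39.5 ± 12.5 CPM and the 7 excitatory groups 3.04 to 10.8 CPM. The genotype difference in OPC was 0.04 (SE 0.14, edgeR adjusted p = 1.00), with log2 ratios of means of 0.28 (single-indexed) and -0.18 (dual-indexed), and from -0.09 (without WT male 1) to 0.22 (without WT male 2). Vipr2 (r = 0.917), the overlapping Gm11650 (0.913) and Traf4 (0.881) followed it. Gm11650 reached the 10 CPM needed for this comparison only in OPC (16.9 CPM, against 1.88 CPM in committed OPC), so its r is no separate support.

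Cacng8, the TARP best known from the hippocampus, was highest in Sst neurons (132 ± 10.5 CPM), L5 ET neurons (118 ± 29.9) and astrocytes (93.3 ± 16.6). Sst exceeded L5 ET neurons in 5 of 8 libraries (exact adjusted p = 0.470). It was lowest among neurons in L4/5 IT cells, at 35 ± 7.0 CPM. The antisense gene Gm44151 overlaps it, held 79890 UMIs against 30804 for Cacng8, and had the closest pattern over the 18 groups (r = 0.981), followed by Ctnnd2 (0.925) and Gm11417 (0.907); the strand of the counting was not given, so the Cacng8 values may include reads of Gm44151.

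In OPC, Cacng8 was the 1 result among the 9 tested members whose genotypes did not overlap. WT libraries were at 37.4, 47.7, 53.5 and 41.5 CPM and Chd8het libraries at 56.4, 65.1, 61.9 and 63.6 CPM. The log2 difference was 0.46 (SE 0.16), with an edgeR adjusted p of 1.00; 1.26% of all genes tested in OPC had non-overlapping genotypes with Chd8het higher. The Cacng8 difference kept its sign in all 18 alternative fits. It was 0.39 to 0.55 with single libraries left out, and 0.38 and 0.53 within single- and dual-indexed libraries. As the genotypes did not overlap, leaving out a library or splitting by index type could not change the sign, so these values add no support. Gm44151 did not go with it: it stood at 147 CPM in WT and 139 CPM in Chd8het. In summed level, the 4 general inhibitory neuron markers in OPC were at 59.8 to 70.9 CPM in WT and 78.9 to 93.4 CPM in Chd8het, while the 5 OPC markers were at 4981 to 5684 and 4459 to 5477 CPM. The 6 mural cell markers summed to 5.16 to 16.4 CPM in WT and 16.5 to 31.8 CPM in Chd8het. No other marker list had genotypes without overlap in OPC. By mean, Sst (560 and 528 CPM) and Pvalb markers (66.5 and 64.6) were lower in Chd8het. So were markers of the medial (1961 and 1841 CPM) and caudal ganglionic eminence (1973 and 1673). Vip (17.4 and 20.7 CPM) and Lamp5 markers (33.1 and 48.4) were higher. What part these had in the Cacng8 result was not tested.

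Cacng5, a TARP of the second type with weaker effects on trafficking, was the sparsest member with 1631 UMIs in all kept nuclei. Vip neurons had 36.1 ± 10.0 CPM, above Sst neurons (14.4 ± 2.13) in 8 of 8 libraries and without overlap, and OPC had 13.1 ± 4.09 CPM. Lamp5 neurons had 10.7, the Tshz2 gate 8.88 and claustrum-like neurons 6.41 CPM, and the other 12 groups lay between 0.615 and 3.36 CPM. The genotype difference in Vip neurons was -0.41 (SE 0.31, edgeR adjusted p = 1.00), from 41.6 ± 10.6 to 30.7 ± 6.70 CPM, lower in 3 of 4 pairs and -0.22 without WT female 2. Elfn1 (r = 0.862), Npas1 (0.848) and Calb2 (0.842) had the nearest patterns. All of them are among the marker genes that sorted the nuclei, so these r values are no separate support.

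**Figure D4:**
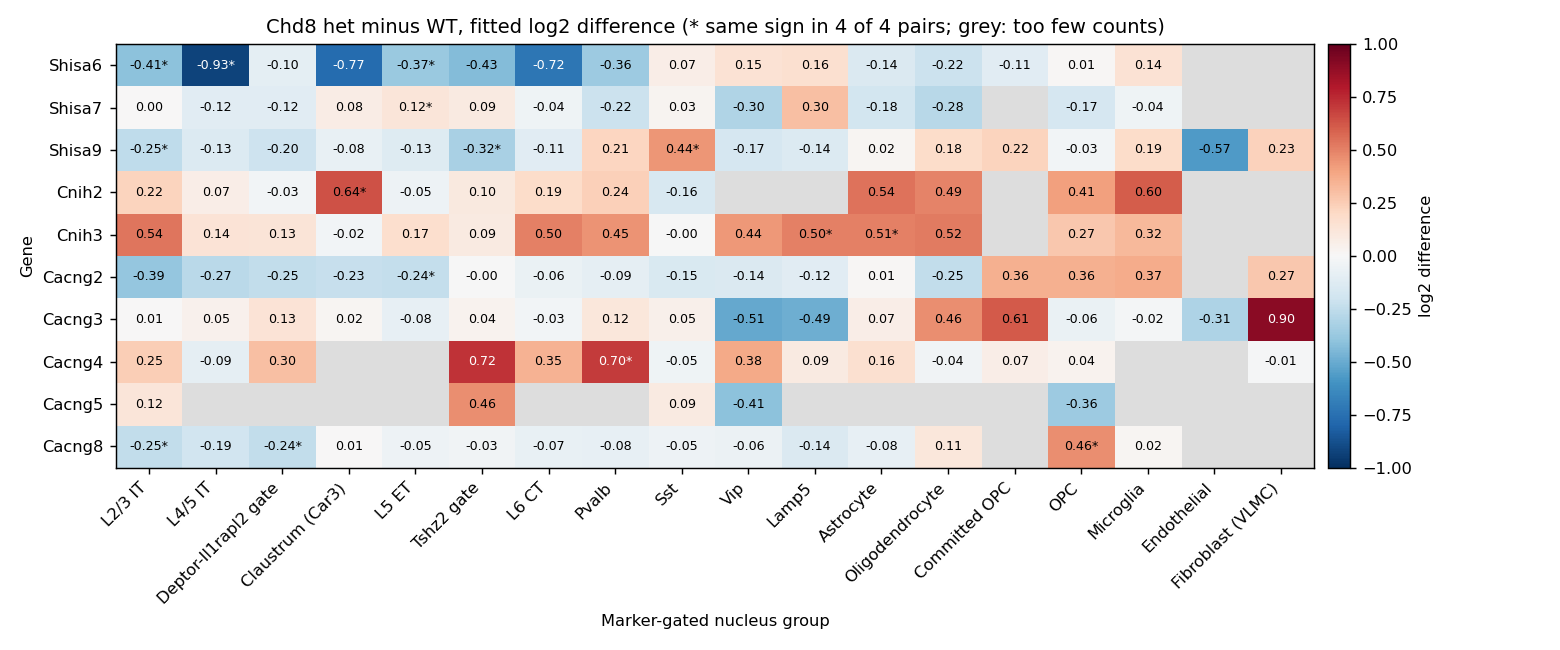
Fitted log2 difference, Chd8het minus WT, for each member (rows) and tested group (columns); an asterisk marks the same sign in 4 of 4 pairs and grey marks too few counts. Shisa6 has values from -0.93 to 0.16 and the lowest ones are in L4/5 IT, claustrum-like and L6 CT neurons.

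Counted over the 18 groups, the 9 members other than Shisa6 passed the filter on low counts in 130 cases. edgeR with Benjamini-Hochberg adjustment called 0 of 130 (smallest adjusted p = 0.695), as it called 0% of all genes in these groups; 4 of 130 had an unadjusted p under 0.05, against 2.47% of all genes. The model with pairs also called 0 (0.022% of all genes), with 16 of 130 at an unadjusted p under 0.05 against 5.91% of all genes. DESeq2 called 0 with and without pairs, and the share of all genes it called is not given here. The 9 members were fitted lower in 61 cases and higher in 69, against 49.8% and 50.2% of all genes, with a median log2 difference of 0.01. Genotypes did not overlap in 1 of the 130, against 0.946% (lower) and 1.09% (higher) of all genes. All 4 pairs were lower in 5 cases and higher in 7, against 7.02% and 6.82% of all genes. In all kept nuclei 0 of 9 passed, as 0% of all genes did there. None of these 9 members passed the edgeR test of a difference between the sexes in its genotype effect (0 of 130 called, as 0% of all genes, smallest adjusted p = 1.00, 2 at an unadjusted p under 0.05).

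The 33 other genes of AMPA receptor signalling, from the Gria subunits to the scaffolds and pentraxins, were tested in the same fits. The model of sex and genotype called 0 of 508 cases over the 18 groups, as it called 0% of all genes, with 3 lower and 6 higher at an unadjusted p under 0.05 against 2.47% of all genes. The edgeR model with pairs called 1 of 518, against 0.022% of all genes. It had 14 lower and 26 higher at an unadjusted p under 0.05, against 5.91% of all genes. DESeq2 called 1 with and without pairs, and the share of all genes it called is not given here. Gria2, the subunit that blocks calcium entry, stood at 2109 ± 175 CPM in WT and 1972 ± 161 CPM in Chd8het L4/5 IT neurons (-0.09, SE 0.09, edgeR adjusted p = 1.00), and Gria4 at 1980 ± 240 and 2016 ± 99.0 CPM (0.04). Gria1 stood there at 457 ± 131 and 407 ± 143 CPM (-0.17, SE 0.27), lower in 3 of 4 pairs. Gria3 stood at 357 ± 77.8 and 390 ± 69.8 CPM (0.13, SE 0.13), higher in 3 of 4 pairs. Of the listed genes with the same sign in 4 of 4 pairs in L4/5 IT neurons, Nptx1, a pentraxin that gathers AMPA receptors, had the largest difference. It stood at 29.2 ± 3.02 CPM in WT and 23.5 ± 1.86 in Chd8het (-0.29), followed by Olfm3 (-0.26) and Nrn1 (0.14). For Nptx1, Olfm3 and Nrn1 the edgeR adjusted p was 1.00.

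Lrrtm4, a synaptic adhesion protein, stood in the fibroblast-like (VLMC) group at 299, 378, 414 and 407 CPM in WT and 623, 769, 710 and 747 CPM in Chd8het. Genotypes did not overlap, as was so with Chd8het higher for 2.5% of all genes in this group. The log2 difference was 0.90 (SE 0.17) with an edgeR adjusted p of 0.107, and 0.90 (SE 0.15) with an adjusted p of 0.00644 in the edgeR model with pairs, which called 0.164% of all genes there. Summed markers in this group were 369 to 537 CPM in WT and 542 to 638 CPM in Chd8het for excitatory neurons and 17.6 to 27.8 and 28.7 to 32.0 CPM for inhibitory neurons. Vip markers were at 25.97 to 30.8 and 31.3 to 55.1 CPM, and striatal markers at 132 to 300.2 and 211 to 366 CPM, higher in Chd8het in 4 of 4 pairs. Only the excitatory, inhibitory and Vip lists did not overlap, and 2 of the 4 inhibitory markers were higher in WT by their means. Lower in Chd8het by mean were markers of L6 CT (813 and 780 CPM), L6b (85.1 and 75.5), Pvalb (37.6 and 33.7) and Lamp5 neurons (139 and 113). So were those of the caudal ganglionic eminence (206 and 191), while the other neuronal lists were higher. In the same nuclei Cacng3 was at 32.1 ± 17.4 and 62.3 ± 25.1 CPM. The part of neuronal RNA in these values was not tested.

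Many members had higher levels in the dual-indexed libraries. In an added edgeR fit with sex, index type and genotype, 45 of 130 values of the 9 members other than Shisa6 (34.6%) were called, all higher in the dual-indexed libraries; over all genes in the 18 groups 12.1% were called and 6.54% were called higher in dual. Shisa6 in L4/5 IT neurons averaged 102 CPM in single-indexed and 288 CPM in dual-indexed libraries (log2 difference 1.48), given with no test because its levels prompted this fit. Shisa9 was called in 13 of 18 groups and Cacng2 in 10 of 17, while Cnih2 and Cacng5 were called in 0 of 13 and 0 of 5. Median UMIs per kept nucleus were 4970 to 5948 in single-indexed and 5984 to 7467 in dual-indexed libraries; the part of depth in these differences was not tested.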

How the data were processed

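Per the labels' protocols, the cortices came from pairs matched for litter and sex, nuclei of all 8 samples were isolated in parallel and libraries were made with 10x v3 reagents for 3' ends. The submitters' processing notes name STAR 2.7.9a, STARsolo, Cell Ranger and the build mm10; for annotation, strand and introns the setting is not stated there. The authors deposited whole-number UMI counts per gene and barcode. Each library is labelled as a separate sample, and p-values measure the spread between these libraries.

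Members and gene lists were chosen with earlier results of these data known. Nuclei with at least 500 genes and at most 5% mitochondrial UMIs were kept (82168), and 4278 doublets predicted by Scrublet were removed (5.21%). A nucleus entered a group where a Poisson likelihood over 122 marker genes led the next group by 5 log units and its own markers reached 50% of their expected UMIs. Counts were summed per library and group, filtered by edgeR (minimum count 10), and tested with edgeR 4.0.16 (quasi-likelihood, R 4.3.3) for sex and genotype, with adjustment over all genes of the group. Log2 differences are Chd8het minus WT. Their SE are from this model, which leaves out the pairs, unless pairs are named. With pairs the SE can be smaller: for Gria1 in L4/5 IT neurons it was 0.27 without and 0.08 with pairs. Alternatives were a block for the 4 pairs, an index term, DESeq2 1.42.0 and its size factors, plain totals for levels, no count filter, doublets kept, stricter nuclei (1000 genes, 1% mitochondrial), a stricter gate, 38 Leiden clusters (scanpy 1.11.5), and each library left out. The fit for index type was added after the Shisa6 levels had been seen. A pair was a WT and a Chd8het library that shared sex and replicate number, which is an assumption, as no label names the libraries of a matched pair. Pair members' deviations from the genotype means correlated above 0.1 for every pair in all tested groups except endothelial cells (lowest r = -0.06). The median r was 0.320, against 0.151 for the same number in the other sex and -0.24 for other numbers. By this definition pair members share sex and index type, so these r cannot show whether they were matched by litter. Named genes were all members, pathway genes called in any group or the 3 largest in L4/5 IT with 1 sign in all pairs, and the nearest patterns (5 for Shisa6, 3 for each other member) by Pearson r of log2(mean CPM + 1) over 18 groups among genes reaching 10 CPM. Gria1, Gria2, Gria3 and Gria4 fall outside this rule and were chosen after their values were seen. Overlaps came from GENCODE M21, to which 32158 of 32285 identifiers matched. No protein sequences were used here. The fits were tested on simulated data, where the model of sex and genotype missed many of the changed genes. A difference that was not called is therefore not shown to be absent.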

Additional observations from a re-analysis of the deposited data

Results flagged for a closer look

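In 24 of 322 groups of 4 libraries (7.45%), 1 library stood apart from the other 3 by more than Dixon's 95% critical value, which chance gives in about 5% of groups. Of these, 14 were a high value in Chd8het male 2, and values are given against the range of the other 3 Chd8het libraries. Cacng2 stood at 204 CPM in all kept nuclei against 110 to 122, 213 CPM in claustrum-like neurons against 102 to 120, 300.5 CPM in L4/5 IT neurons against 129 to 158, 235 CPM in L6 CT neurons against 114 to 133, 206 CPM in Lamp5 neurons against 138 to 143, 46.4 CPM in oligodendrocytes against 17.7 to 19.7. Cacng3 stood at 276 CPM in L4/5 IT neurons against 182 to 194, 63.4 CPM in oligodendrocytes against 36 to 37. Cacng5 stood at 4.99 CPM in all kept nuclei against 2.41 to 2.58. Cacng8 stood at 71.6 CPM in the Deptor-Il1rapl2 gate against 43.2 to 47.6, 108 CPM in L6 CT neurons against 67.8 to 74.5. Cnih3 stood at 18.8 CPM in fibroblast-like cells against 9.58 to 11, 47.5 CPM in L2/3 IT neurons against 11.47 to 14.6, 151 CPM in the Deptor-Il1rapl2 gate against 101 to 107.

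The other 10 came from other libraries, each set against the other 3 of its genotype. Cacng2 stood at 45.5 CPM in fibroblast-like cells (Chd8het male 1, against 28.1 to 30.2). Cacng3 stood at 165 CPM in endothelial cells (WT male 1, against 38.3 to 58). Cacng4 stood at 44 CPM in fibroblast-like cells (WT male 2, against 19.4 to 23.1). Cacng5 stood at 7.48 CPM in OPC (WT male 1, against 16.4 to 18.1). Cacng8 stood at 45.7 CPM in Lamp5 neurons (Chd8het female 1, against 78.6 to 81.4). Cnih2 stood at 38.4 CPM in astrocytes (Chd8het male 1, against 15.5 to 18.3), 7.92 CPM in L5 ET neurons (WT female 1, against 16.8 to 18.6), 23.6 CPM in L6 CT neurons (WT male 1, against 13.8 to 14.6). Shisa7 stood at 23.3 CPM in oligodendrocytes (WT female 2, against 11.9 to 13.1). Shisa9 stood at 22.5 CPM in endothelial cells (Chd8het male 1, against 66.1 to 72.6). No cause was tested.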

How the results depend on the processing

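The count of called members other than Shisa6 stayed at 0 in every alternative run. Of 47 named log2 differences, 23 kept their sign in all alternatives, and 67 of 839 alternative values had the other sign; 7 of 13 Shisa6 values kept theirs. The Shisa6 difference in L4/5 IT neurons was -0.93, and -1.36 to -0.50 with 1 library left out. With the replicate block for the 4 pairs it was -0.85. The replicate block changed a call only in the pathway list, from 0 to 1 (Lrrtm4 in fibroblast-like cells). The pathway count was 1 rather than 0 also by DESeq2 with and without pairs, with an index term and without a count filter. It was 1 as well with doublets kept and with the stricter gate or nuclei. All of these are refits of the same 8 libraries and no separate support. The share of all genes called in these settings is not given here, and the cause was not tested. The highest group was the same for 10 members, for 9 with stricter nuclei or without WT female 2 or Chd8het male 2 (Cnih2 then led in Vip neurons), and for 7 of 10 in Leiden clusters, where no Vip group was tested and Cnih3 led in L5 ET neurons. Depth limits Cacng5 most, at 1631 UMIs.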
